A study of Mus musculus with 14 samples.

Results

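IFITM1, IFITM2 and IFITM3 (Ifitm1, Ifitm2 and Ifitm3 in mouse nomenclature), the interferon-induced transmembrane genes that many tissues express, were followed across days, plates and blood lineages. They were taken by name from the rows of both deposited count tables and make up 3 of the 22842 genes that the tables share. Another 4 genes of the family (Ifitm5, Ifitm6, Ifitm7 and Ifitm10) were also in both tables and are given for comparison. The series traced the progeny of endogenous blood stem cells in mice with an inducible reporter and sequenced single lineage-negative, Tom-positive cells from plates, with libraries made from transcript 3′ ends by a modified Smart-seq2 protocol. Day 3 was mouse m4539 (2 plates), day 10 was mouse m4533 (3 plates), and at day 17 there were mouse m4528 with 4 plates and mice m605 and m606 with 2 plates each. A further day 17 plate held cells of m605 and m606 together and is called the mixed plate. Every mouse carried the reporter, and the labels name no untreated control, no strain or age, and neither the promoter that drives the recombinase nor the event from which days were counted. Mice m4539, m4533 and m4528 are in the first table and m605, m606 and the mixed plate in the second table, so table and day are partly confounded.

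Ifitm proteins are small membrane proteins that block the fusion of many enveloped viruses with the cell. Ifitm1 acts mostly at the cell surface, whereas Ifitm2 and Ifitm3 reside mostly in endosomes and lysosomes. Interferons induce the genes through the transcription factors that bind interferon-stimulated response elements, and stem cells of several tissues are known to express some of these genes without added interferon. In blood, stem cells give rise to megakaryocytes (the platelet lineage), erythroid cells, neutrophils, monocytes, and basophils and mast cells.

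The genes lie side by side on mouse chromosome 7 (GRCm38). Ifitm2 is at chr7:140954837-140955987 on the minus strand, Ifitm1 at chr7:140967221-140969825 on the plus strand and Ifitm3 at chr7:141009586-141010770 on the minus strand. Ifitm5 and Ifitm6 flank them, and the cluster spans 68967 bases. Ifitm10 lies elsewhere on chromosome 7 and Ifitm7 on chromosome 16. The coding sequences of Ifitm2 and Ifitm3 were 75.9% identical in a pairwise alignment, while that of Ifitm1 was 60.4% identical to Ifitm2 and 63.5% to Ifitm3. In the last 300 bases of their transcripts, from which a 3′-end library reads, no word of 50 bases of Ifitm1 or Ifitm3 occurred in a transcript of another gene. Of the 251 such words of Ifitm2, 69 occurred in other annotated genes (Gm11951, Gm2840, Gm45308, Gm45432 and Gm8865), and Ifitm2 also overlaps the gene model Gm45717. Ifitm2 counts are therefore uncertain where reads were shared with these copies, and the sources used here do not give how they were split.

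The promoters are shown because the 3 genes share a locus and a family and their levels are set side by side below. Each line holds 250 bases before to 50 bases after the start site of the RefSeq transcript (GRCm38.p6), read 5′ to 3′ on the strand of the gene, with capitals marking each match to GAAANNGAAA, the core of the interferon-stimulated response element. The windows are chr7:140967826-140968125 on the plus strand for Ifitm1, chr7:140955912-140956211 on the minus strand for Ifitm2 and chr7:141010695-141010994 on the minus strand for Ifitm3. The Ifitm1 window lies inside the gene as annotated above, whose outermost start is upstream of the RefSeq start site.
Ifitm1: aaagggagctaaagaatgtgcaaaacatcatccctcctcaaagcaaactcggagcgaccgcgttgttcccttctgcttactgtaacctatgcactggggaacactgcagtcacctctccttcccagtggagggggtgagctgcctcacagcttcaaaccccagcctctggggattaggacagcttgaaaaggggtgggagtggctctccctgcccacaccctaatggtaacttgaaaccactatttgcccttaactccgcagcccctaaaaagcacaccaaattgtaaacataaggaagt
Ifitm2: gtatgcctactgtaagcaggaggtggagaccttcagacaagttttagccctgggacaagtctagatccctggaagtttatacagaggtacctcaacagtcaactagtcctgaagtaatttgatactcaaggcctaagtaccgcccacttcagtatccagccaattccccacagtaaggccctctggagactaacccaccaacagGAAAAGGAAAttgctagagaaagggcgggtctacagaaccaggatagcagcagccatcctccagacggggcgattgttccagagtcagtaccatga
Ifitm3: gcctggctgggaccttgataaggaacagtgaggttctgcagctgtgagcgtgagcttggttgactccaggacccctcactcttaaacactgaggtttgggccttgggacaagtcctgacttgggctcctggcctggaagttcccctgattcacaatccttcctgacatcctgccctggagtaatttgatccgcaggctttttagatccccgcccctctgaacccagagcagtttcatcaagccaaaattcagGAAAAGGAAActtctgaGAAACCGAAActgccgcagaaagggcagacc
The motif was searched on both strands (TTTCNNTTTC on the other). Ifitm1 had no match in its window. Ifitm2 had 1 match, 46 bases before the start site, and Ifitm3 had 2 matches, both within 19 bases after it. Of 32851 RefSeq promoter windows of the same length, 3.44% held the motif, as did 15 of the 29 genes of the interferon response list that had a window. A match is a description of these letters and not a measurement of binding.

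After filtering (at least 500 genes and 10000 counts per barcode), 1010 of 9357 barcodes were kept as cells. The mice gave 107 to 288 cells each, with 25449441 to 64254317 counts per mouse and medians of 117894 to 286917 counts per cell. The same 96 well barcodes recur on the plates and were told apart by plate. Cells were gated by lineage from 6 marker genes per lineage, none of them an Ifitm gene. A marker counted as on above 10 counts, and a gate needed at least 3 markers on and a lead of at least 2 over any other lineage. This gave 185 stem-gated, 65 megakaryocyte-gated, 118 erythroid-gated, 54 neutrophil-gated, 80 monocyte-gated and 14 basophil or mast cell-gated cells. A further 99 cells with at least 4 of 6 progenitor markers formed the progenitor gate, and 395 cells had no gate. Markers held out of the lineage gates and found in both tables were compared over the lineage gates alone. Those highest in their own gate were 8 of 8 megakaryocyte, 7 of 7 erythroid, 8 of 8 neutrophil, 6 of 8 monocyte, 5 of 5 basophil or mast cell and 5 of 8 stem markers. Of these, Mpo is also a progenitor gate marker, and Slamf1 was slightly higher in cells without a gate than in the stem gate. The stem exceptions were Esam, Trpc6 and Ctnnal1, which were highest in the megakaryocyte gate. Of the stem-gated cells, 97 had exactly 3 markers on. Summed markers of macrophages stayed under 46 CPM (each gene's summed counts scaled to a fixed library total) in every gate. Those of stromal and endothelial cells were at 169 CPM in the stem gate and at 183 CPM in cells without a gate. They were at 1.36 to 33.8 CPM in the other lineage gates and the progenitor gate, and their part in the results below was not tested. Of these 8 markers, Emcn, which blood stem cells are also known to express, made up 146.5 CPM in the stem gate (0.452 to 17.9 CPM in the other gates). Kdr made up 19.0 CPM (0 to 16.4 CPM), while the others were at most 2.12 CPM in the stem gate. Col1a2 was higher in the monocyte gate (13.3 CPM) and Pdgfrb in the neutrophil gate (6.74 CPM). In cells without a gate Emcn was at 105 CPM, Col1a2 at 43.4 CPM and Col1a1 at 20.9 CPM.

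Ifitm1 had its highest level in the stem gate among gates with at least 10 cells in a mouse. It was at 55.5 CPM in mouse m4533, 76.3 CPM in m4528 and 143 CPM in m606 in the megakaryocyte gate. Erythroid-gated cells had 177 CPM in m4528, 10.9 CPM in m605 and 33.4 CPM in m606. In the monocyte gate it was at 41.6 CPM in m4528, 72.4 CPM in m605 and 106 CPM in m606. Every one of these 9 sums lay below every stem-gated sum, which held 1689.7 CPM in m4539, 604 CPM in m4533, 776 CPM in m4528 and 1710.4 CPM in m606. The neutrophil gate had 135 CPM in m4528 and 176 CPM in m605, and the progenitor gate 155 CPM in m4528, 140.2 CPM in m605 and 287 CPM in m606, so that these 5 sums were also below the lowest stem-gated sum. The mixed plate, which entered no gate fit, had 231 CPM in megakaryocyte-gated, 20.9 CPM in erythroid-gated, 127 CPM in monocyte-gated and 175 CPM in progenitor-gated cells, against 2044 CPM in stem-gated cells. In order of mean level over mice, the gates ran from stem (1195 ± 587 CPM, SD, n = 4 mice) through progenitor (194 ± 80.8, n = 3), neutrophil (156, n = 2), megakaryocyte (91.4 ± 45.4, n = 3), erythroid (73.7 ± 89.9, n = 3) to monocyte (73.3 ± 32.2, n = 3). The ranges of neighbours in that order overlapped except between stem and progenitor. Cells without a gate had 687 ± 387 CPM (SD, n = 5 mice), from 365 to 1340.5 CPM, a range that overlapped that of the stem gate.

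**Figure D1:**
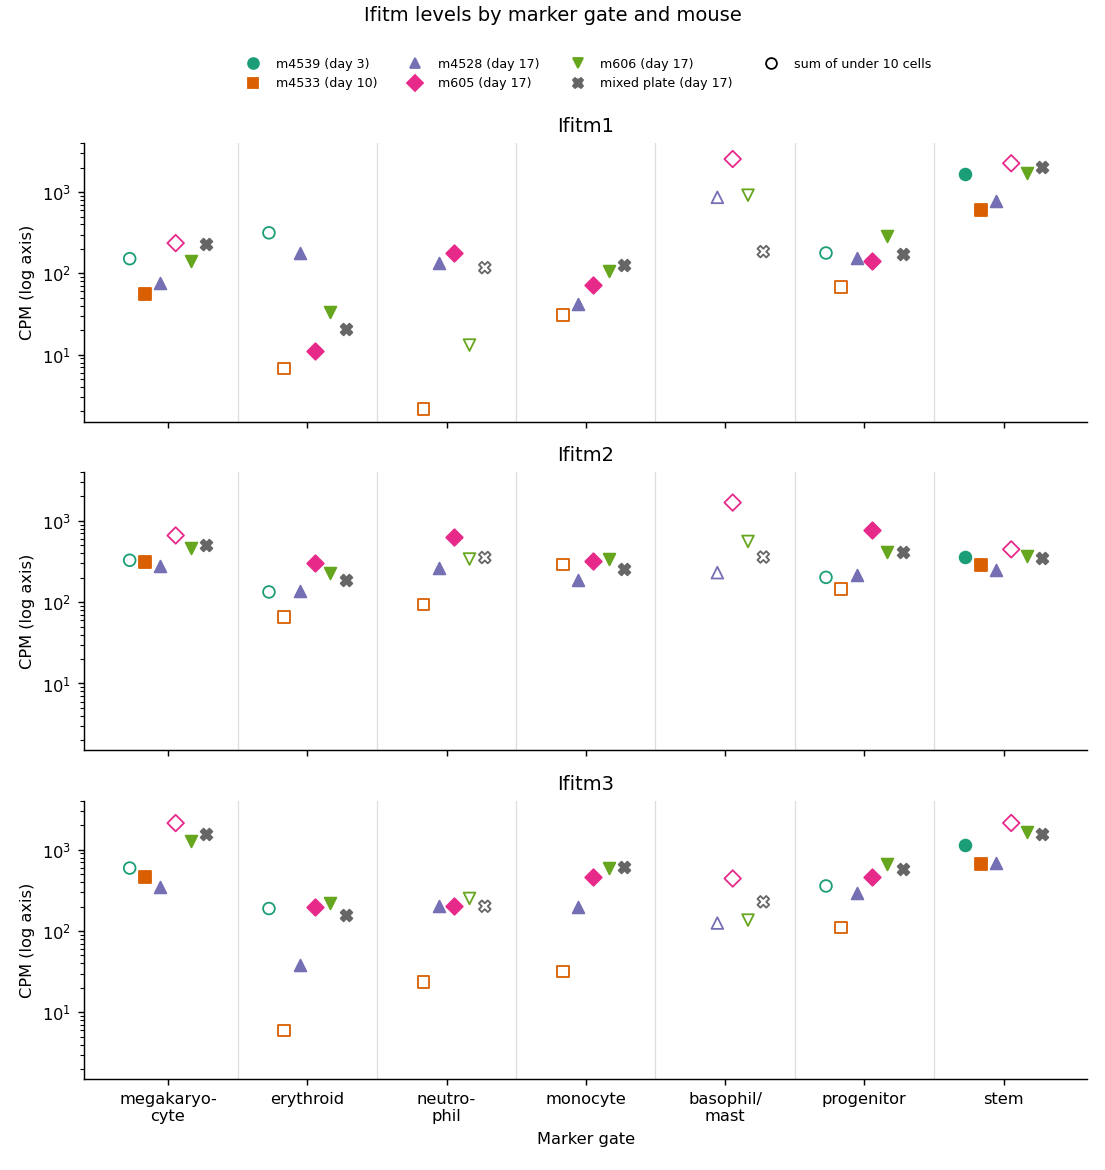
Level of Ifitm1, Ifitm2 and Ifitm3 in CPM (log axis) by marker gate, 1 point for each mouse and for the mixed plate, with open symbols for sums of under 10 cells. Ifitm1 separates the stem gate from the megakaryocyte, erythroid and monocyte gates, the erythroid-gated Ifitm3 sums of at least 10 cells lie below the stem-gated ones, and Ifitm2 overlaps between neighbouring gates.

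In a joint edgeR quasi-likelihood fit over the 18 sums of at least 10 cells, with mouse and gate as terms and Benjamini-Hochberg adjustment over 14699 genes, Ifitm1 fell in 3 of 5 gates relative to the stem gate. The log2 fold change was -3.46 (SE 0.79, adjusted p = 0.0383) in the megakaryocyte gate, where 1.46% of all genes were called lower and 1.93% higher. It was -3.77 (SE 0.85, adjusted p = 0.0171) in the erythroid gate, where 4.88% were called lower and 5.65% higher. It was -3.57 (SE 0.86, adjusted p = 0.0292) in the monocyte gate, where 2.52% were called lower and 4.59% higher. The estimates for the neutrophil gate (-2.19, SE 0.99, adjusted p = 0.268, with 0.68% of genes called lower and 2.54% higher) and the progenitor gate (-2.24, SE 0.81, adjusted p = 0.164, with 0.796% called lower and 3.46% higher) did not pass. DESeq2 called Ifitm1 lower in all 5 gates (adjusted p = 0.0361 in the neutrophil gate and 0.00907 in the progenitor gate), and it called more genes than edgeR in each gate. Of all genes it called 969 of 13274 lower in the neutrophil gate and 801 of 12704 in the progenitor gate. In the megakaryocyte, erythroid and monocyte gates it called 1188 of 12419, 1825 of 12989 and 1310 of 13274 lower. Each of the 3 edgeR calls was lost on leaving out at least 1 single mouse, while the estimates stayed negative. Both a gate sum and a stem-gated sum were held by m4533, m4528 and m606 for the megakaryocyte gate. For the erythroid, monocyte and progenitor gates m4528 and m606 held both, and for the neutrophil gate m4528 alone. Mouse m605 had 4 stem-gated cells, too few for a stem-gated sum, and entered through its other gates. Without m606 the adjusted p was 0.202 in the megakaryocyte, 0.209 in the erythroid and 0.244 in the monocyte gate. Without m605 it was 0.0595 in the megakaryocyte and 0.0731 in the erythroid gate, and without m4533 it was 0.130 in the megakaryocyte gate. The estimates without these mice lay between -3.49 and -3.06. The call was also lost in all 3 gates under 2 stricter gate rules, which left m606 with 9 stem-gated cells and so without a stem-gated sum. With markers on at 50 CPM the adjusted p was 0.0615 to 0.192. With at least 4 markers on it was 0.124 to 0.341 in the erythroid and monocyte gates. That rule left m606 as the only mouse with a megakaryocyte-gated sum. No mouse then held both that gate and the stem gate, and the megakaryocyte estimate of -1.98 came through other gates.

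Single cells carried much of the Ifitm1 in some lineage sums. In erythroid-gated cells of m4528, 1 of 15 cells held 887 of 1143 counts (77.6%), and the level was 40.5 CPM without that cell. Without m4528 altogether, the erythroid estimate was -5.85, and m606 was the only mouse left with both an erythroid-gated and a stem-gated sum. In neutrophil-gated cells of m605, 1 of 10 cells held 372 of 397 counts (93.7%), and the level was 11.7 CPM without it. With sums of at least 4 cells admitted, a choice made after seeing the data, a neutrophil sum of m606 (8 cells, 13.1 CPM) entered and Ifitm1 was called lower in the neutrophil gate (log2 fold change -3.61, SE 0.94, adjusted p = 0.0310). In stem-gated cells no such concentration was seen in the largest group, where the top of 94 cells in m4539 held 2.60% of the Ifitm1 counts.

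Ifitm3, a restriction factor of influenza virus, had its lowest mean in erythroid-gated cells among gates with at least 10 cells in a mouse. Its level was 458 CPM in m4533, 350.3 CPM in m4528 and 1294 CPM in m606 in the megakaryocyte gate, against 674 CPM in m4533, 688 CPM in m4528 and 1671 CPM in m606 in the stem gate, which also had 1128 CPM in m4539. The megakaryocyte sum was the lower of the pair in all 3 mice, but the ranges overlapped, and in the mixed plate it was 1569 CPM, against 1544 CPM in stem-gated cells. Erythroid-gated cells had 38.7 CPM in m4528, 199.9 CPM in m605 and 219.9 CPM in m606, all below every stem-gated sum. Neutrophil-gated cells had 201 CPM in m4528 and 201 CPM in m605. Monocyte-gated cells had 195 CPM in m4528, 466 CPM in m605 and 601 CPM in m606, and progenitor-gated cells 295 CPM in m4528, 458 CPM in m605 and 670.3 CPM in m606. These sums also lay below the lowest stem-gated sum. By mean level the order was stem (1040.4 ± 470.2 CPM, SD, n = 4 mice), megakaryocyte (701 ± 517, n = 3), progenitor (474 ± 188, n = 3), monocyte (421 ± 206, n = 3), neutrophil (201, n = 2) and erythroid (153 ± 99.4, n = 3), and the ranges of all neighbours in that order overlapped. Cells without a gate had 908 ± 384 CPM (SD, n = 5 mice). In the same edgeR fit, Ifitm3 fell in the erythroid gate (log2 fold change -3.06, SE 0.38, adjusted p = 0.000741), the neutrophil gate (-1.89, SE 0.42, adjusted p = 0.0340) and the monocyte gate (-1.38, SE 0.36, adjusted p = 0.0410). Only m4528 held both a neutrophil-gated and a stem-gated sum in that fit, so the neutrophil call is not replicated over mice. The megakaryocyte estimate of -0.64 (SE 0.33, adjusted p = 0.328) and the progenitor estimate of -1.17 (SE 0.36, adjusted p = 0.0986) did not pass.

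The Ifitm3 call in the erythroid gate held in 13 of 14 alternatives (adjusted p up to 0.0588, without m606). In the monocyte gate it was lost without m4528 (adjusted p = 0.0698), without m605 (0.0527) and without m606 (0.253), and with 3 other settings, and in the neutrophil gate without m4528 (0.0733), without m605 (0.255) and without m606 (0.186), and likewise with 3 others. The range over all 14 alternatives was 6.39e-05 to 0.253 in the monocyte gate and 1.24e-05 to 0.255 in the neutrophil gate. The megakaryocyte estimate was 0.01 with a lead of 1 marker in place of 2, a setting added after seeing the data.

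Ifitm2 had the narrowest range of gate means of the 3 genes. Its mean over mice was 223 ± 84.1 CPM in the erythroid gate (SD, n = 3), 283 ± 81.7 in the monocyte gate (n = 3), 351 ± 103 in the megakaryocyte gate (n = 3), 449.7 in the neutrophil gate (n = 2) and 468 ± 286 in the progenitor gate (n = 3), against 314 ± 57.3 in the stem gate (n = 4). The sums ran from 137 CPM in erythroid-gated cells of m4528 to 779 CPM in progenitor-gated cells of m605, and the range of each gate overlapped that of its neighbour in order of mean level. No gate differed from the stem gate in the edgeR fit, with log2 fold changes of -0.76 (SE 0.27, adjusted p = 0.0974) in the erythroid gate, -0.23 (SE 0.26, adjusted p = 0.677) in the monocyte gate, 0.20 (SE 0.24, adjusted p = 0.727) in the megakaryocyte gate, 0.34 (SE 0.30, adjusted p = 0.616) in the neutrophil gate and 0.31 (SE 0.27, adjusted p = 0.598) in the progenitor gate. The erythroid estimate passed with DESeq2 (-1.05, adjusted p = 0.00452), with library totals without TMM scaling (-0.83, adjusted p = 0.0414) and with a lead of 1 marker (-0.90, adjusted p = 0.0237), and over its 14 alternatives the adjusted p ranged up to 0.607. These fits do not show that Ifitm2 was equal between gates.

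**Figure D2:**
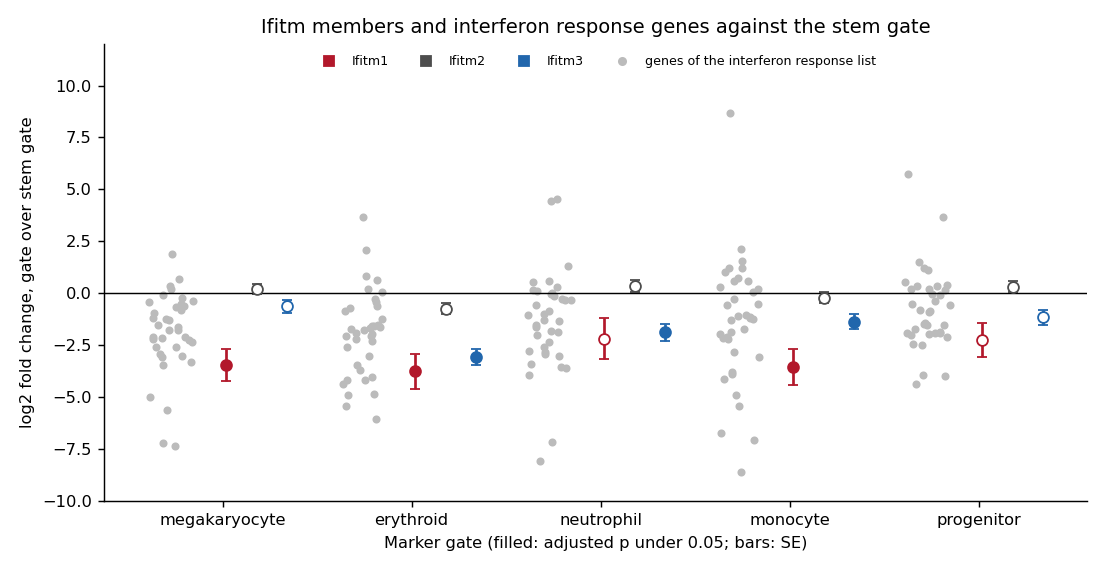
Log2 fold change of each gate over the stem gate for Ifitm1, Ifitm2 and Ifitm3 with SE bars (filled where the adjusted p is under 0.05), beside the 37 tested genes of the interferon response list in grey. Ifitm1 lies between -3.77 and -2.19, Ifitm3 between -3.06 and -0.64 and Ifitm2 between -0.76 and 0.34.

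The contrast within the family was taken as the log2 ratio of Ifitm1 to each of the other members, computed from CPM with 1 CPM added. The size of such a ratio depends on how well each transcript is captured, so differences were compared and not single ratios, here between gates of the same mouse. The Ifitm1 to Ifitm3 ratio was -3.02 in m4533, -2.18 in m4528 and -3.17 in m606 in the megakaryocyte gate, against -0.16 in m4533, 0.17 in m4528 and 0.03 in m606 in the stem gate. The mean difference was -2.81 (n = 3 mice, negative in all 3). The Ifitm1 to Ifitm2 ratio was -2.45, -1.84 and -1.71 in the megakaryocyte gate of those mice, against 1.08, 1.64 and 2.21 in the stem gate, a mean difference of -3.65 ± 0.24 (SD, n = 3). An exact two-sided sign-flip test over 3 mice gave p = 0.25 for each, the smallest it allows (adjusted p = 0.571 over 8 comparisons). The megakaryocyte-gated sums of m4539 (3 cells), m605 (6 cells) and the mixed plate (12 cells) did not enter that test. Their Ifitm1 to Ifitm3 ratios were -1.97, -3.17 and -2.76, against 0.58, 0.08 and 0.40 in their stem-gated cells (94, 4 and 10 cells). In the 4 stem-gated cells of m605, a single cell held 53.7% of the Ifitm1 counts and a single cell 66.7% of the Ifitm3 counts.

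In the monocyte gate the Ifitm1 to Ifitm3 ratio was -2.21 in m4528 and -2.49 in m606, against 0.17 and 0.03 in the stem gate of the same mice, and the Ifitm1 to Ifitm2 ratio was -2.16 and -1.67, against 1.64 and 2.21. The mean differences were -2.45 and -3.85, negative in both mice (exact sign-flip p = 0.5, the smallest that 2 mice allow). For progenitor-gated cells the mean difference was -1.18 for the ratio to Ifitm3 and -2.42 for the ratio to Ifitm2, again negative in both mice (exact p = 0.5). In erythroid-gated cells the Ifitm1 to Ifitm2 ratio was 0.37 in m4528 and -2.73 in m606, against 1.64 and 2.21 in the stem gate, a mean difference of -3.11 that was negative in both mice. The Ifitm1 to Ifitm3 ratio went in opposite directions, at 2.16 in m4528 and -2.68 in m606, against 0.17 and 0.03 in the stem gate, and the high value in m4528 is the sum in which 1 cell held most of the Ifitm1 counts. The erythroid-gated cells of m605 (38 cells) and the mixed plate (19 cells) did not enter the main test. Their ratios to Ifitm3 were -4.07 and -2.84, against 0.08 and 0.40 in their stem-gated cells, which numbered only 4 in m605 and 10 in the mixed plate. Neutrophil-gated cells had 1 mouse with both gates, m4528, where the ratio to Ifitm3 was -0.56 against 0.17 in the stem gate and the ratio to Ifitm2 was -0.94 against 1.64.

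**Figure D3:**
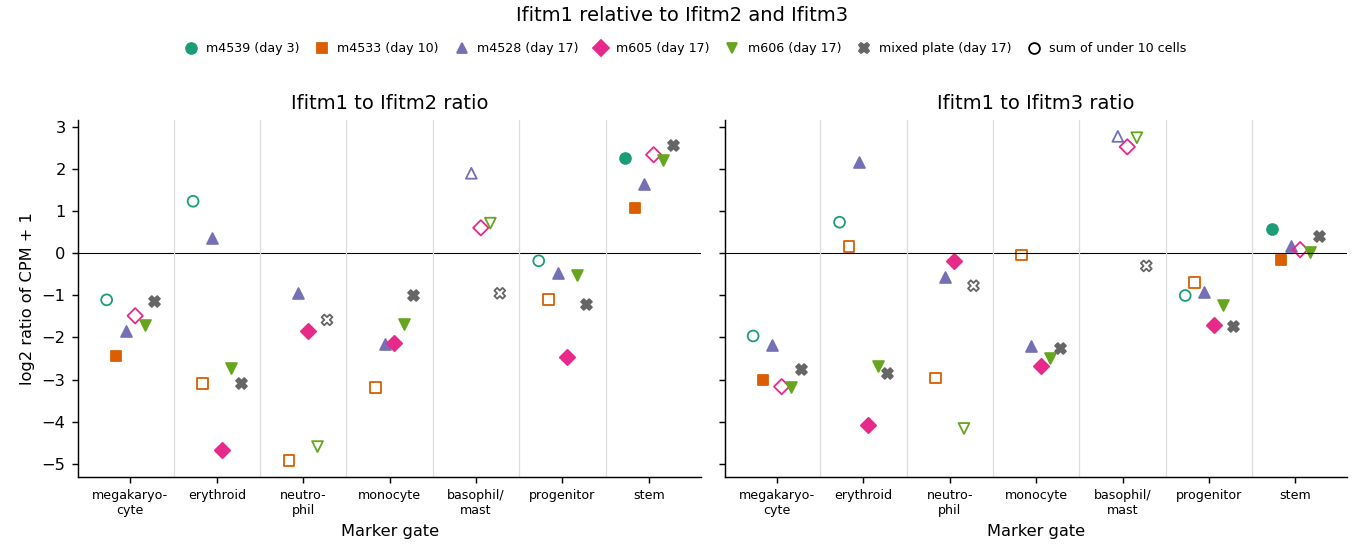
Log2 ratio of Ifitm1 to Ifitm2 (left) and to Ifitm3 (right), from CPM with 1 added, by marker gate and mouse, with open symbols for sums of under 10 cells. The stem-gated sums of at least 10 cells lie between 1.08 and 2.25 on the left and between -0.16 and 0.58 on the right in the single mice, and the megakaryocyte-gated ones between -2.45 and -1.71 and between -3.17 and -2.18.

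At the level of single cells, each kept cell was thinned to 10000 counts so that deep and shallow cells could be compared. At that depth Ifitm1 was found in 55.4% of megakaryocyte-gated cells (exact 95% interval 42.5 to 67.7), 17.8% of erythroid-gated (11.4 to 25.9), 29.6% of neutrophil-gated (18.0 to 43.6), 38.8% of monocyte-gated (28.1 to 50.3) and 59.6% of progenitor-gated cells (49.3 to 69.3), against 98.4% of stem-gated cells (95.3 to 99.7). Ifitm2 was found in 80.5% of erythroid-gated to 96.9% of megakaryocyte-gated cells, against 89.2% of stem-gated cells. Ifitm3 was found in 95.4% of megakaryocyte-gated (87.1 to 99.0), 57.6% of erythroid-gated (48.2 to 66.7), 61.1% of neutrophil-gated (46.9 to 74.1) and 71.3% of monocyte-gated cells (60.0 to 80.8), against 93.0% of stem-gated cells (88.3 to 96.2). Of cells without a gate, 81.8% held Ifitm1, 86.3% Ifitm2 and 90.9% Ifitm3. The intervals cover counting error over cells only, since the cells of a mouse are not replicates. By the unthinned measure of over 10 counts, Ifitm1 was found in 66.2% of megakaryocyte-gated and 15.3% of erythroid-gated cells, against 98.4% of stem-gated cells. In the erythroid gate a further 70.3% of cells held 1 to 10 counts of Ifitm1, and barcodes left out by the filter also held Ifitm counts, so such low counts were not read as expression.

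Detection of Ifitm1 and Ifitm3 in the same cell was counted as a description. Of megakaryocyte-gated cells, 52.3% held both Ifitm1 and Ifitm3 at the thinned depth, 43.1% held Ifitm3 without Ifitm1 and 3.08% Ifitm1 without Ifitm3. Of erythroid-gated cells, 46.6% held Ifitm3 without Ifitm1 and 35.6% held neither. Among stem-gated cells 91.4% held both, 7.03% held Ifitm1 without Ifitm3 and 1.62% the reverse.

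**Figure D4:**
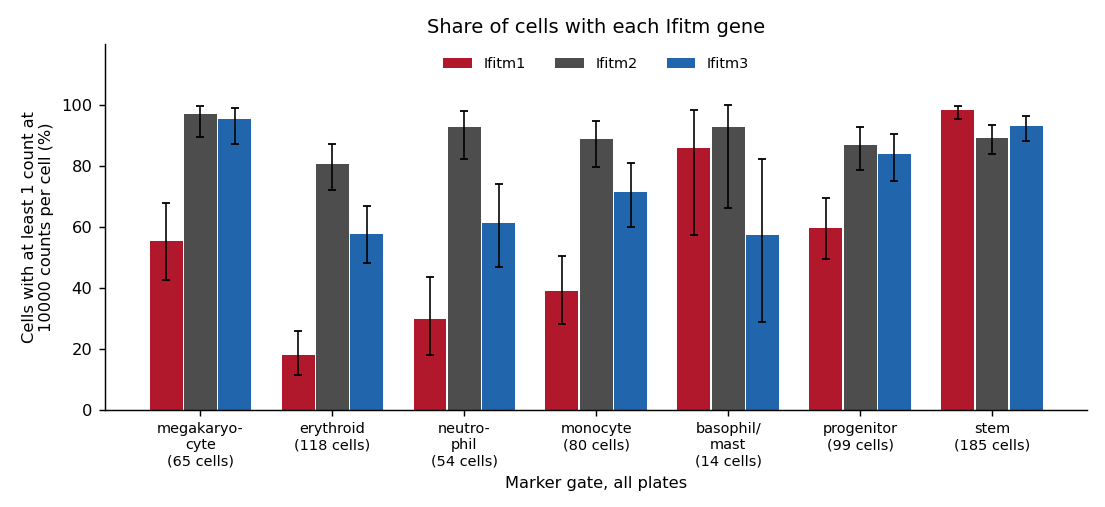
Share of cells with at least 1 count of each gene after thinning to 10000 counts per cell, by marker gate over all plates, with exact 95% intervals over cells. Ifitm1 is found in 17.8% of erythroid-gated and 98.4% of stem-gated cells, while Ifitm2 exceeds 80% in every gate.

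Basophil or mast cell-gated cells were 14 in all. In their 2 larger sums Ifitm1 lay within the range of the stem-gated sums of at least 10 cells, and Ifitm3 lay below that range. Ifitm1 was at 861 CPM in m4528 (6 cells) and 914 CPM in m606 (5 cells), against 776 CPM in m4528 and 1710.4 CPM in m606 in the stem gate, while Ifitm3 was at 125 CPM in m4528 and 136 CPM in m606, against 688 and 1671 CPM in stem-gated cells. The Ifitm1 to Ifitm3 ratio exceeded that of the stem gate by 2.65 ± 0.08 on the log2 scale (SD, n = 2 mice, exact sign-flip permutation p = 0.5, the smallest possible, adjusted p = 0.545 over 12 comparisons). The ratio was 2.52 in the 2 gated cells of m605 and -0.30 in the single gated cell of the mixed plate, which entered no test. In m605 Ifitm1 was at 2547 CPM and Ifitm3 at 443 CPM, with 95.3% and 100% of these counts in a single cell. With sums of at least 4 cells admitted after seeing the data, edgeR called Ifitm3 lower than in the stem gate (log2 fold change -2.79, SE 0.52, adjusted p = 0.00600), where 1.67% of 14274 genes were called lower and 2.33% higher. Ifitm1 (-0.47, SE 0.96, adjusted p = 0.838) and Ifitm2 (0.58, SE 0.33, adjusted p = 0.320) were not called. At the thinned depth 85.7% of these cells held Ifitm1 and 57.1% held Ifitm3. In m4528 a single cell held 70.0% of the Ifitm3 counts of this gate, and in m606 61.8%.

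Over days, Ifitm1 was highest at day 3 when all kept cells of a plate were summed. Its level was 1269.9 and 1492 CPM in the 2 plates of day 3, 138 to 440.2 CPM in the 3 plates of day 10 and 135 to 419 CPM in the 9 plates of day 17 (mixed plate included). All 12 later plates lay below both day 3 plates. Ifitm3 was at 1021 and 1106 CPM at day 3, 145 to 696 CPM at day 10 and 201 to 741 CPM at day 17, again with no later plate reaching day 3. Ifitm2 was at 331 and 353 CPM at day 3, 122 to 372 CPM at day 10 and 135 to 805 CPM at day 17, and its ranges overlapped between days. The share of stem-gated cells moved with day too, at 47.9% and 51.0% of the cells of the day 3 plates, 9.68% to 36.4% at day 10 and 0% to 17.1% at day 17. In sums over all cells, fewer cells of a type and less RNA per cell cannot be told apart.

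**Figure D5:**
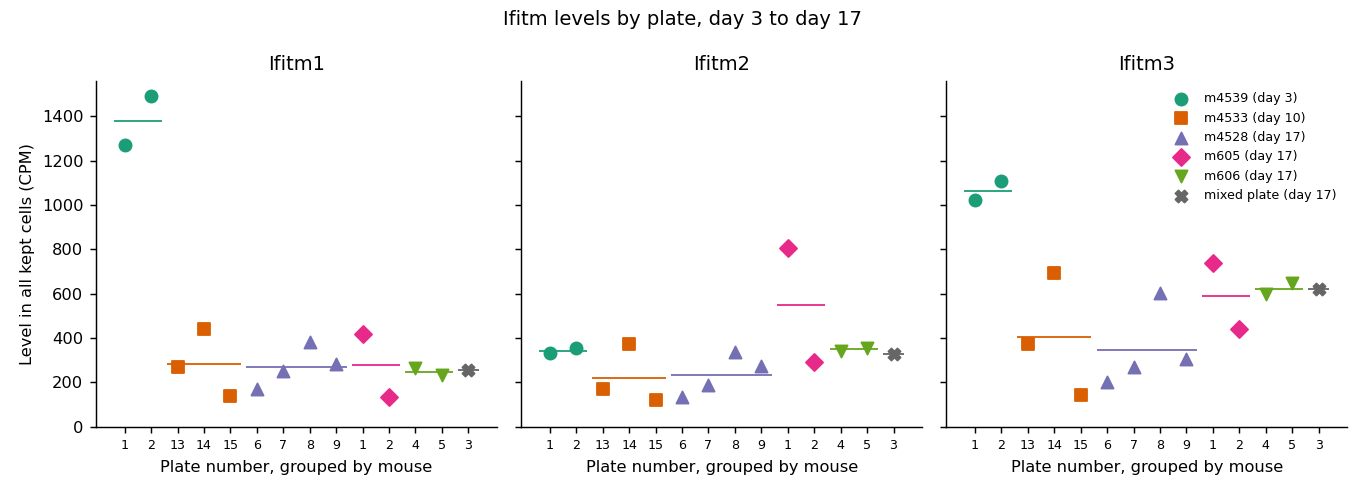
Level of each gene in CPM over all kept cells of a plate, with plates grouped by mouse from day 3 to day 17 and lines at the mean of each mouse. Both day 3 plates stand above all later plates for Ifitm1 (1269.9 and 1492 CPM) and Ifitm3, and not for Ifitm2.

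With edgeR's quasi-likelihood test over the 5 mice, with table as a term and Benjamini-Hochberg adjustment, the slope per 14 days was -2.27 for Ifitm1 (SE 0.57, adjusted p = 0.405), -1.58 for Ifitm3 (SE 0.36, adjusted p = 0.361) and -0.46 for Ifitm2 (SE 0.46, adjusted p = 0.861) on the log2 scale. None passed. In this fit edgeR called 0% of 16740 genes lower and 0% higher, with 1473 genes at an unadjusted p under 0.05. DESeq2 called Ifitm1 (slope -2.40, adjusted p = 0.00265) and Ifitm3 (-1.71, adjusted p = 0.00372) lower, among 0.827% of 14143 genes called lower and 2.39% called higher. The slopes rested on the single day 3 mouse, since without m4539 they were -0.16 for Ifitm1, -0.61 for Ifitm3 and 0.08 for Ifitm2. Without m4528 the Ifitm1 slope was -4.49 (adjusted p = 0.201) and the Ifitm3 slope -2.66 (adjusted p = 0.201). Within the stem gate the day 3 mouse stood above m4533 and m4528, the later mice of the first table, for all 3 genes, but not above m606. Ifitm1 was at 1689.7 CPM at day 3, 604 CPM at day 10, and 776 and 1710.4 CPM in the 2 day 17 mice with at least 10 stem-gated cells, m4528 and m606. Ifitm3 was at 1128, 674, 688 and 1671 CPM in the same order, and Ifitm2 at 355, 285, 248 and 368 CPM. For all 3 genes m606, of the second table, exceeded m4528, and the table and the mouse cannot be told apart here. The table term takes up the level of m606, so the stem-gated slopes rest on m4539, m4533 and m4528. Without m606 the Ifitm1 slope was -1.05. The stem-gated slopes were -1.01 for Ifitm1 (SE 0.55), -0.41 for Ifitm2 (SE 0.61) and -0.60 for Ifitm3 (SE 0.47), each with an edgeR adjusted p of 1, where 0% of 13253 genes were called (844 at an unadjusted p under 0.05, and 9 genes with DESeq2).

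The Ifitm1 to Ifitm2 ratio of all kept cells averaged -0.43 in the 3 day 17 mice, against 1.17 in the mice of days 3 and 10. The difference of -1.60 reached the smallest p that an exact two-sided permutation test of 3 against 2 mice allows (p = 0.1, adjusted p = 0.4 over 4 comparisons). By mouse the ratio was 2.01 in m4539 and 0.33 in m4533, against 0.21 in m4528, -0.98 in m605 and -0.51 in m606. Without m4539, the day 3 mouse, the difference was -0.76. Mice m605 and m606 are also those of the second table, and day and table cannot be told apart for them. The Ifitm1 to Ifitm3 ratio averaged -0.92 at day 17, against -0.08 before (difference -0.84, exact permutation p = 0.3). In stem-gated cells the differences were 0.26 for the ratio to Ifitm2 and -0.11 for the ratio to Ifitm3 (exact permutation p = 1 for each, with 2 day 17 mice against 2).

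Genes of the interferon response were read beside the members from a list of 40, of which 37 were tested between gates. In the erythroid gate 8 genes of the list were called lower and 0 higher, where 4.88% of all genes were called lower and 5.65% higher, with a median log2 fold change of -1.77, against 0.23 over all genes tested. Ly6e, a virus-restricting surface protein, was at 1024 ± 148 CPM in erythroid-gated cells (SD, n = 3 mice), against 1499 ± 395 CPM in stem-gated cells (n = 4). The immunoproteasome subunits Psmb8 (348 ± 164 CPM, against 1359.6 ± 442 CPM in stem-gated cells) and Psmb9 (55.2 ± 11.1, against 191 ± 17.5), the GTPases Ifi47 (63.8 ± 27.5, against 404 ± 188) and Gbp2 (7.36 ± 7.77, against 291 ± 96.3), and Trim30a (9.78 ± 3.62, against 128 ± 54.9) were also called, with adjusted p between 0.00106 and 0.0436. In the megakaryocyte gate 3 genes were called lower and 0 higher (1.46% and 1.93% of all genes; median -1.76, against -0.01 over all genes), namely Ly6e (949 ± 260.5 CPM), the GTPase Gbp3 (0.709 ± 0.729 CPM, against 102 ± 37.2 CPM in stem-gated cells) and Rtp4 (7.28 ± 9.42, against 185 ± 108).

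In the monocyte gate 4 genes of the list were called lower (Ifi27, Ifi44, Oasl2 and Rtp4) and Ly6e was called higher, at 3565 ± 166 CPM against 1499 ± 395 CPM in stem-gated cells (log2 fold change 1.22, SE 0.12, edgeR adjusted p = 0.000239). Of all genes 2.52% were called lower and 4.59% higher there, and the list's median was -1.17, against 0.20 over all genes. The neutrophil gate had 1 gene lower, the interferon signalling factor Irf9 (14.3 CPM, n = 2, against 177 ± 84.1 CPM), with 0.68% of all genes called lower and a median of -1.27 against 0.18. In the progenitor gate 1 gene of the list was called higher, Ly6e at 2346 ± 370 CPM, a share no larger than the 3.46% of all genes called higher there, and the median was -0.84 against 0.27. Over days, 28 of the 38 list genes tested had a negative slope in all kept cells (median -0.46, against 0.03 over all genes) and none was called, while in stem-gated cells 11 of 36 had one (median 0.39, against -0.10).

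Of 12 genes for interferon receptors and their signalling, 10 were tested. The kinase Jak1, which relays the signal of interferon receptors, was called lower in the megakaryocyte gate (223 ± 79.9 CPM, n = 3), the monocyte gate (147 ± 1.67) and the progenitor gate (192 ± 80.6), against 638 ± 60.7 CPM in the stem gate (n = 4). Ptpn11, a phosphatase of cytokine signalling, was called higher in the megakaryocyte gate (213 ± 38.7 CPM, against 49.8 ± 37.0 CPM). No other gene of this list was called. In the megakaryocyte, monocyte and progenitor gates 1.46%, 2.52% and 0.796% of all genes were called lower, and 1.93% higher in the megakaryocyte gate. The list's median log2 fold change in these gates was 0.17, 0.37 and -0.22, against -0.01, 0.20 and 0.27 over all genes. Of 8 genes whose proteins are known to act with Ifitm proteins, 7 were tested. The tetraspanin Cd9 was called lower in the erythroid gate (25.8 ± 15.5 CPM) and the monocyte gate (41.4 ± 17.3), against 262 ± 68.1 CPM in the stem gate. The tetraspanin Cd81 was called lower in the monocyte gate (182 ± 43.7 CPM) and the progenitor gate (427 ± 144), against 1307 ± 407 CPM. Nedd4, a ubiquitin ligase that marks Ifitm3 for degradation, was called lower in the monocyte gate (81.4 ± 17.2 CPM, against 741 ± 169 CPM). Of all genes, 4.88%, 2.52% and 0.796% were called lower in the erythroid, monocyte and progenitor gates. The list did not fall as a whole in the monocyte gate, where 4 of its 7 genes had a positive estimate. Its median was 0.44 there, against 0.20 over all genes, and -0.75 in the erythroid and -0.37 in the progenitor gate, against 0.23 and 0.27.

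The rarer family members had patterns of their own. Ifitm6, a member described in macrophages, was at 84.3 ± 40.8 CPM in monocyte-gated cells (SD, n = 3 mice), against 0.943 ± 0.903 CPM in stem-gated cells (n = 4), and was called higher (log2 fold change 7.84, SE 1.53, edgeR adjusted p = 0.0110). Ifitm7, the member on chromosome 16, was at 0.244 ± 0.214 CPM in megakaryocyte-gated, 0.295 ± 0.0911 CPM in erythroid-gated and 0.747 ± 0.787 CPM in monocyte-gated cells (n = 3 each), against 25.6 ± 2.87 CPM in stem-gated cells (n = 4). It was called lower in these 3 gates (log2 fold changes of -6.47, -5.63 and -4.36, edgeR adjusted p of 0.0190, 0.0139 and 0.0390), the same gates in which Ifitm1 was called lower. Ifitm5 and Ifitm10 averaged at most 2.52 CPM in each of these gates.

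The genes whose log2 levels followed each member most closely were taken from 7097 genes with a mean of at least 20 CPM over the 18 mouse and gate sums. The sums share mice and plates, so the correlations are descriptions. Ifitm1 was followed by Pik3ip1 (Pearson r = 0.889), Gm19590, Krt18, Ly6a and Hlf (r = 0.863), of which Hlf is a stem gate marker and Ly6a, a stem cell surface antigen, a held-out one. Pik3ip1, an inhibitor of PI3 kinase, was at 20.3 ± 20.7 CPM in erythroid-gated cells, against 406 ± 176 CPM in stem-gated cells. Ifitm3 was followed by the histone gene H3f3b (r = 0.888), Pnrc1, Hist1h1c and the immediate early response genes Ier2 and Zfp36 (r = 0.864). Zfp36 was at 75.6 ± 47.7 CPM in erythroid-gated cells, against 1579 ± 1684 CPM in stem-gated cells. Ifitm2 was followed by Grcc10 (r = 0.908), 1810058I24Rik, S100a13, Phpt1 and Dynlrb1 (r = 0.844), a set without a stem gate marker. Between the members themselves r was 0.162 for Ifitm1 and Ifitm2, 0.543 for Ifitm1 and Ifitm3 and 0.515 for Ifitm2 and Ifitm3.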

How the data were processed

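Single-cell RNA libraries of 14 plates from 5 mice were measured. The authors deposited raw counts per gene and barcode in 2 tables, with the genome build GRCm38 per the submitters' processing notes. For the aligner, the counter and molecular identifiers nothing is given in the sources used here. Every count column was mapped to a plate through its name. No barcode was tested as a doublet, and the required lead of 2 markers does not leave out every cell with markers of 2 lineages.

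Counts of the kept cells were summed per mouse, or per mouse and gate, and CPM was taken from these sums. The mouse was the replicate, and there was 1 mouse each at day 3 and day 10. In the gate fit, p-values measure how differences between gates vary over mice, pooled over all gates. They do so also for gates that few mice held beside a stem-gated sum. The main test was edgeR's quasi-likelihood test (version 4.0.16, R 4.3.3, TMM, filterByExpr), with a threshold of 0.05 on Benjamini-Hochberg adjusted p-values over all genes. DESeq2 1.42.0 was an alternative, beside other gate rules, filters, scaling and left-out mice. The mouse was a block in the gate fit because gates of 1 mouse share the animal. Ratios and thinning used Python 3.11.15, numpy 2.4.6 and scipy 1.17.1. The fits were tested on simulated data, where most changes of the sizes tried had the right sign but were not called, so a gene that did not pass is not shown to be unchanged. No 2 plates agreed within sampling noise (91 pairs, at least 28.8 chi-square units per gene).

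The members, the marker lists and the pathway lists were chosen with earlier results of these data known. Genes named from the pathway lists passed the threshold, at most the 6 with the highest mean CPM per list and comparison, and 5 genes per member were named by likeness. Intervals cover counting error only.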

Additional observations from a re-analysis of the deposited data

Results flagged for a closer look

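Among the 5 mice, Ifitm1 in all kept cells of m4539, the day 3 mouse, was at 1380.94 CPM, far from the other 4 mice. Among the 9 plates of day 17, Ifitm2 was at 804.87 CPM in plate 1 of m605, far from the other plates. That plate held no stem-gated cell. Of 15 groups looked at for a far sample, chance marks about 1 in 20.

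The Ifitm1 to Ifitm3 log2 ratio of erythroid-gated cells minus that of stem-gated cells was 1.99 in m4528 and -2.72 in m606, opposite directions in mice of the 2 tables. The difference was not tested. In m4528, 1 of 15 erythroid-gated cells held 77.6% of the Ifitm1 counts.

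The 8347 barcodes left out by the filter held 247.5 CPM of Ifitm1, 214 CPM of Ifitm2 and 381 CPM of Ifitm3 in their summed counts (712, 617 and 1096 counts). In the mixed plate, which entered only alternative day fits, Ifitm1 was at 257 CPM, Ifitm2 at 326 CPM and Ifitm3 at 622 CPM.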

How the results depend on the processing

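Leaving out 1 mouse at a time, the Ifitm1 estimate was -5.85 to -3.06 in the erythroid, -3.56 to -3.45 in the megakaryocyte and -3.88 to -3.39 in the monocyte gate. That of Ifitm3 was -3.28 to -2.84 in the erythroid, -1.51 to -1.39 in the monocyte and -2.62 to -1.37 in the neutrophil gate. The Ifitm2 day slope in all cells was -1.12 to 0.081. The day difference of the stem-gated ratio to Ifitm2 was -0.32 to 0.85 and to Ifitm3 -0.48 to 0.26, and the erythroid difference of the ratio to Ifitm3 was -2.72 to 1.99.

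Without the mouse as a replicate block, Ifitm3 no longer passed in the monocyte (-1.08) and neutrophil gates (-2.09), and Ifitm2 was at 0.056 in the monocyte gate. Without the table term, the Ifitm2 slope in all cells was 0.47 and the Ifitm3 slope in stem-gated cells 0.24, against the printed signs. With markers on at 50 CPM, Ifitm1 did not pass in the erythroid (-3.67), megakaryocyte (-3.12) and monocyte gates (-2.93), nor Ifitm3 in the neutrophil gate (-1.77). Ifitm2 turned to -0.032 in the megakaryocyte and -0.088 in the neutrophil gate. Both stricter gate rules left m606 with 9 stem-gated cells, under the 10 needed, so that the erythroid and neutrophil ratios rested on m4528 alone. With 50 CPM the erythroid difference of the ratio to Ifitm3 in m4528 was 2.29 (1.99 in that mouse before), the neutrophil one 0.10, and the stem-gated day difference of the ratio to Ifitm2, without m606, -0.12. With at least 4 markers on, Ifitm1 did not pass in the erythroid (-3.38), megakaryocyte (-1.98) and monocyte gates (-2.58), nor Ifitm3 in the monocyte (-1.78) and neutrophil gates (-1.70). Under that rule the megakaryocyte gate had a sum of m606 alone and the neutrophil gate of m4528 alone. No mouse held both a megakaryocyte-gated and a stem-gated sum. Ifitm2 was at -0.022 in the megakaryocyte and -0.022 in the progenitor gate, the erythroid difference of the ratio to Ifitm3 in m4528 at 1.90 and, from m4528 and m4539 alone, the stem-gated day difference of the ratio to Ifitm2 at -0.48. With a lead of 1 marker, Ifitm3 did not pass in the monocyte gate (-1.22) and was at 0.0098 in the megakaryocyte gate, the stem-gated day difference of the ratio to Ifitm3 was 0.017, and Ifitm2 in the erythroid (-0.90) and Ifitm1 in the neutrophil gate (-2.58) passed. Sums of at least 4 cells let Ifitm1 pass in the neutrophil gate (-3.61), and library totals without TMM let Ifitm2 pass in the erythroid gate (-0.83). DESeq2 also passed Ifitm1 for day (-2.40) and in the neutrophil (-2.46) and progenitor gates (-2.54), Ifitm3 for day (-1.71) and in the progenitor gate (-1.45), and Ifitm2 in the erythroid gate (-1.05). The cause of the other changes was not tested. The other 204 values of the members under alternatives not meant to leave out a mouse had the direction and side of the threshold given above.

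Genes called numbered 1547 in the erythroid gate (157 to 3076 over 14 alternatives), 498 in the megakaryocyte (19 to 2206), 1045 in the monocyte (110 to 2431), 474 in the neutrophil (26 to 1823) and 625 in the progenitor gate (49 to 1738), with DESeq2 giving each highest count. The day slopes gave 0 (0 to 455 in all cells, 0 to 9 in stem-gated cells). With DESeq2, 40.7% of erythroid, 46.1% of megakaryocyte, 46.1% of monocyte, 46.8% of neutrophil and 53.9% of progenitor calls were higher, against 53.7%, 56.8%, 64.6%, 78.9% and 81.3% with edgeR, and its medians over all genes were -0.13, -0.13, -0.13, -0.11 and -0.05, against 0.23, -0.01, 0.20, 0.18 and 0.27. Stem-gated slopes with at least 4 markers on, or without m4539, m4533 or m4528, were not run because no residual degrees of freedom remained. Megakaryocyte-gated sums of 10, 10 and 24 cells limit the precision of that gate.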
